A study of Mus musculus with 2 samples.

Results

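The 9 genes Hspa5, Xbp1, Herpud1, Creld2, Sdf2l1, Dnajb9, Pdia4, Hyou1 and Manf, which are switched on when unfolded protein builds up in the endoplasmic reticulum (ER), were examined in 2 mouse liver sections. They were taken by gene symbol from the 32285 genes counted in both sections, and all 9 were found. Both sections came from male C57BL/6J mice bought at 5 weeks of age and acclimated for 1 week. One mouse was fed a normal chow diet (NCD) and the other a high-fat diet (HFD) with 60% of its energy from fat, for 14 weeks before an 8-week period in which both were given distilled water by gavage. Sections of 10 µm were measured on Visium slides, on which each barcoded spot collects RNA from a small group of neighbouring cells and each captured molecule is counted once as a unique molecular identifier (UMI). With 1 section from 1 mouse per diet there was no replicate and no test. Diet, mouse, section and slide cannot be told apart, and every interval below is an exact 95% interval that covers counting error only.

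Secreted and membrane proteins fold in the lumen of the ER. When folding falls behind, the sensors IRE1, ATF6 and PERK start the unfolded protein response, in which spliced XBP1 and cleaved ATF6 raise the transcription of chaperones and of the machinery that removes misfolded proteins. Hepatocytes make most plasma proteins and carry a dense ER, and this response has been studied in fatty liver. Hspa5 encodes BiP, the central chaperone of the ER lumen, and Xbp1 encodes the transcription factor made by IRE1 splicing. Hyou1 encodes a nucleotide exchange factor for BiP, Dnajb9 and Sdf2l1 encode cochaperones that work with BiP, and Pdia4 encodes a protein disulphide isomerase. Herpud1 encodes a membrane protein of ER-associated degradation, and Creld2 and Manf encode secreted or ER-resident proteins induced by ER stress.

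The promoters of these genes carry known control elements. RefSeq promoters (build GRCm38.p6, 250 bases before to 50 bases after the start of the gene) were at hand for 7 of the 9 genes, all but Hyou1 and Manf. They were searched on both strands for the ER stress response element (ERSE, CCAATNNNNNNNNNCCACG), its second form (ERSE-II, ATTGGNCCACG) and the core of the unfolded protein response element (UPRE, TGACGTG). ERSE was found in the Hspa5 and Creld2 promoters and in 0.119% of 32851 mouse promoters of the same length. ERSE-II was found in the Herpud1 promoter and in 0.0365% of the same promoters, and TGACGTG in the Hspa5 promoter and in 2.01% of them. The 3 promoters with an ERSE or ERSE-II are printed here up to the base before the start, 5′ to 3′ on the strand of the gene, with the element in capitals. All 3 lie on the plus strand, at chr2:34771840-34772089 for Hspa5, chr8:94386179-94386428 for Herpud1 and chr15:88819396-88819645 for Creld2.
Hspa5: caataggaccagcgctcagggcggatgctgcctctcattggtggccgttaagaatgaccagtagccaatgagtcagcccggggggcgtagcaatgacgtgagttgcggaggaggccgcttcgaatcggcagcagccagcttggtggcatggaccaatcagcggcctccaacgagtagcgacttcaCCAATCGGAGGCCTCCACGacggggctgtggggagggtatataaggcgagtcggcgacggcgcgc
Herpud1: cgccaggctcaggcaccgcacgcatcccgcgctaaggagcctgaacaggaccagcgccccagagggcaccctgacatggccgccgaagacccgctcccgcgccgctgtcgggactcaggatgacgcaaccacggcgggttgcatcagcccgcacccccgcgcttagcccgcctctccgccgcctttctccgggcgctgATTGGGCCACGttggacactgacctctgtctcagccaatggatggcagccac
Creld2: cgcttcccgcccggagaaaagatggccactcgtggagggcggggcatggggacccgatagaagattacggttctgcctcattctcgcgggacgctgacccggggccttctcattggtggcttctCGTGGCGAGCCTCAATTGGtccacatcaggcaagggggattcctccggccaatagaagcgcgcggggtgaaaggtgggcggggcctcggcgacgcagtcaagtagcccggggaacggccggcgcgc
In Hspa5 the element begins 65 bases before the start, and in Herpud1 it begins 52 bases before it. In Creld2 the ERSE is on the opposite strand, so that its complement is shown, and it spans bases 125 to 143 of the printed sequence. The ERSE contains the CCAAT box, which alone was found in 37.4% of promoters and in 6 of the 7 member promoters. These are matches of letters, and binding was not measured. The elements were already known to control genes of this kind, so no enrichment is read from the matches.

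The libraries differed in depth. The NCD section held 3692 spots over tissue and 29037988 UMIs (median 4187.5 for a spot), and the HFD section 3594 spots and 72118803 UMIs (median 18549). In the NCD section 22.8% of the spots had under 1000 UMIs, against 4 spots in the HFD section. Spots off the tissue held 19.1% of all UMIs on the NCD slide area and 2.93% on the HFD one. Their median was 3383 UMIs in NCD, near that of spots over tissue, and 1175.5 UMIs in HFD, far below it. Whether off-tissue spots in NCD hold missed tissue or RNA that spread from it was not tested. The sections shared 3173 spot barcodes, as sections read with the same barcode list do. The labels give liver as the tissue but also name a haematopoietic stem cell line and immune cells. Markers of hepatocytes summed to 88643 counts per 1000000 UMIs (CPM) in the NCD section and 101394 CPM in the HFD section, and those of haematopoietic stem cells to 26.1 and 35.7 CPM, so the data are of whole liver.

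All 9 genes were higher in the HFD section. Together they took 695.5 CPM (686.0 to 705.2) in the NCD section and 2358 CPM (2347 to 2369) in the HFD section, a 3.39-fold difference (3.34 to 3.44). At least 1.5-fold higher levels in HFD were found for 9 of 9 members and for 23.9% of the 10665 genes with 200 or more UMIs, and at least 1.5-fold lower levels for 0 of 9 members and 4.56% of all genes. The median log2 ratio was 1.73 over the members and 0.23 over all genes. Relative to that all-gene median, 8 of 9 members were still at least 1.5-fold higher, and Xbp1 was at 0.43 on the log2 scale. In bulk spots, more cells of one type and more RNA per cell cannot be told apart.

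Hspa5, the gene of the central chaperone, was counted at 239.7 CPM (234.1 to 245.4) in the NCD section and 798 CPM (791 to 804) in the HFD section. The HFD level was 3.33-fold higher. Its partner genes were at lower levels and also higher in HFD. Hyou1 was at 16.8 CPM in NCD and 32.9 CPM in HFD, a 1.96-fold difference (1.77 to 2.16). Dnajb9, whose product ERdj4 brings BiP to misfolded proteins, was at 38.8 CPM in NCD and 81.9 CPM in HFD, a 2.11-fold difference (1.98 to 2.25). Sdf2l1 was at 7.06 CPM (6.13 to 8.10) in NCD and 36.6 CPM (35.3 to 38.1) in HFD, a 5.19-fold difference (4.50 to 6.01). The intervals of Hyou1 and Sdf2l1 did not overlap, but with the RNA profile of spots off the tissue subtracted the log2 ratio of Hyou1 went from 0.97 to 2.49, above that of Dnajb9 at 1.28. That subtraction left 56.3 of 488 UMIs of Hyou1 in NCD, and 2206 of 2373 in HFD, so the value of 2.49 rests on few NCD counts. Pdia4, which forms and rearranges disulphide bonds, was at 40.9 CPM in NCD and 91.4 CPM in HFD, a 2.24-fold difference (2.10 to 2.38).

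Creld2 and Manf are both induced by ER stress in other cells. Creld2 was at 12.9 CPM (11.6 to 14.3) in NCD and 89.9 CPM (87.7 to 92.1) in HFD, a 6.98-fold difference (6.29 to 7.77). Manf was at 43.2 CPM in NCD and 244 CPM in HFD, a 5.66-fold difference (5.34 to 5.999), which overlapped with that of Sdf2l1. Herpud1 stood beside Hspa5 as one of the 2 genes with the most UMIs. It was at 225.4 CPM in NCD and 870.0 CPM in HFD, a 3.86-fold difference (3.76 to 3.96). Xbp1 had the lowest ratio, with 70.8 CPM (67.8 to 74.0) in NCD and 113 CPM (110 to 115) in HFD, a 1.59-fold difference (1.51 to 1.67). UMIs are counted from the tail end of a transcript, so gene length does not enter the levels. The order in NCD was Hspa5, Herpud1, Xbp1, Manf, Pdia4, Dnajb9, Hyou1, Creld2 and Sdf2l1, in which Manf, Pdia4 and Dnajb9 overlapped with their neighbours within counting error. In HFD the order was Herpud1, Hspa5, Manf, Xbp1, Pdia4, Creld2, Dnajb9, Sdf2l1 and Hyou1, in which Pdia4 and Creld2 overlapped. The counts do not tell spliced from unspliced Xbp1 transcripts.

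**Figure D1:**
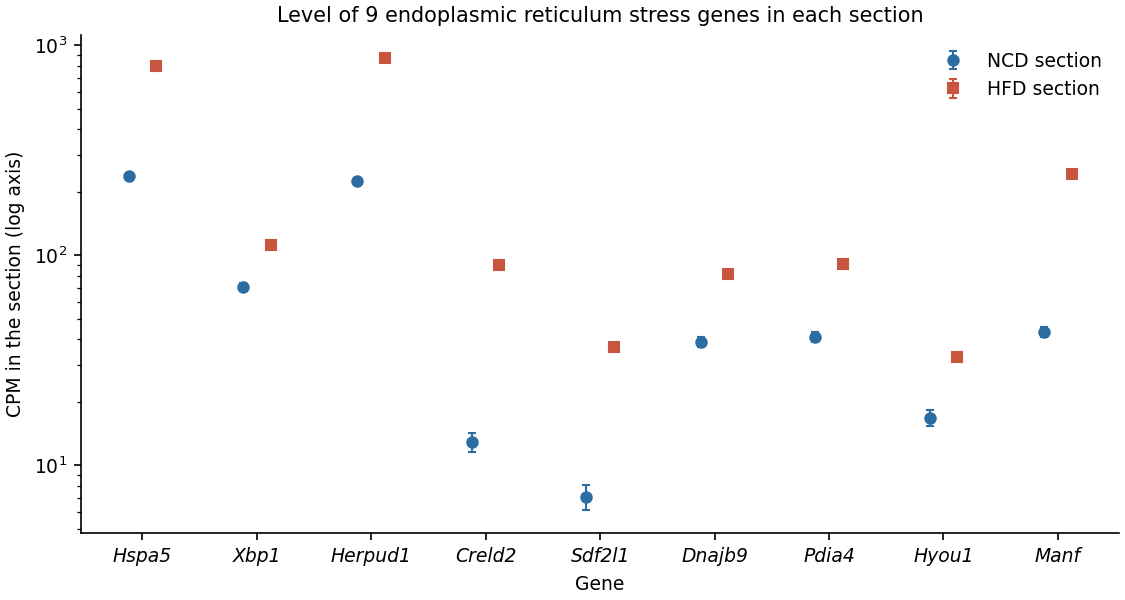
Level of each of the 9 genes in CPM (vertical log axis) in the NCD section (blue circles) and the HFD section (red squares), with 95% Poisson intervals that are often smaller than the symbols. Every gene lies higher in HFD, with the widest gap for Creld2 (12.9 and 89.9) and the narrowest for Xbp1 (70.8 and 113).

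The share of spots with at least 1 UMI gave the same order of the sections at equal depth. After each spot was drawn down to 3000 UMIs, which left 2107 NCD and 3538 HFD spots, Hspa5 was detected in 51.0% (48.9 to 53.2) of NCD spots and 87.8% (86.6 to 88.8) of HFD spots. Herpud1 was detected in 49.9% and 91.0%, and Manf in 11.8% and 50.5%. Xbp1 was detected in 18.5% (16.9 to 20.2) and 27.5% (26.0 to 29.0). The share was higher in HFD with intervals apart for 9 of 9 members and for 23.8% of 10665 genes. Before this step Hspa5 was detected in 57.1% of all NCD spots and 99.4% of all HFD spots.

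Other readings moved with the section and bear on these levels. RNA in spots off the tissue carried the 9 genes at 719 CPM in the NCD section, against 695.5 CPM on the tissue, and at 1545 CPM in the HFD section, against 2358 CPM on it. With the off-tissue profile subtracted per spot, the log2 ratio of the summed members went from 1.76 to 1.90, and Hyou1 moved most. This step left 9.52e+06 of 29037988 UMIs in NCD and 6.65e+07 of 72118803 in HFD. Hepatocyte markers differed far less between the sections than the members did, and every one of their 6 genes was detected in both. Bile duct markers (5 genes) were at 49.9 CPM in NCD and 200.4 CPM in HFD, and lipid-associated macrophage markers (5 genes) at 69.4 and 281 CPM. Spp1, which is in both lists, gave 43.5 and 187 CPM of each sum, and the other 4 genes came to 6.44 and 13.6 CPM for bile duct and to 25.9 and 94.0 CPM for these macrophages. Stellate cell markers (6 genes) were at 397 and 544 CPM. Plasma cells, which hold an extended ER, went the other way, with 7 markers at 111 CPM in NCD and 41.0 CPM in HFD. The members did not differ between the 5% of spots richest in plasma cell markers and the other spots beyond counting error, at 693 and 696 CPM in NCD and at 2352 and 2358 CPM in HFD. The part of the other cell types in the difference between sections was not tested.

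The position of each spot in the liver lobule was then set by landmark genes. Blood enters the lobule on the periportal side and leaves on the pericentral side, and hepatocytes express different genes along that path. The share of 8 pericentral landmarks among the UMIs of these and 10 periportal landmarks was taken per spot, where at least 20 such UMIs were present, and spots were ranked within each section and split into 3 equal zones, periportal, middle and pericentral. This gave a position to 2661 NCD spots (72.1%) and 3578 HFD spots (99.6%). The periportal zone ended at a pericentral share of 45.7% in NCD and 39.7% in HFD, and the pericentral zone began at 73.5% and 62.0%. Zones were thus matched between the sections by rank only. At least 1.5-fold lower in HFD were 7 of 8 pericentral and 2 of 10 periportal landmarks, against 4.56% of all genes. Higher were 0 and 2 of them, against 23.9%. None of the 9 genes is a landmark. Separate check genes were ordered as named for 7 of 7 pericentral and 5 of 5 periportal genes in both sections.

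In the HFD section 8 of the 9 genes were higher on the periportal side, and Xbp1 had no settled slope. In the NCD section single genes leaned either way and weakly, Herpud1 to the periportal side and Hspa5, Dnajb9 and Pdia4 to the pericentral side, so that their sum was nearly flat. Summed, they were at 683, 703 and 701 CPM from the periportal to the pericentral zone in NCD, a log2 pericentral to periportal ratio of 0.04 (-0.01 to 0.09). In HFD they were at 2698, 2300 and 1934 CPM, a log2 ratio of -0.48 (-0.50 to -0.46). By 10 equal steps the HFD sum was highest in the most periportal step, at 2835 CPM, and lowest in the most pericentral step, at 1772 CPM. The corresponding NCD range was 678 to 714 CPM. Spots off the tissue held 19.1% of all UMIs in NCD and 2.93% in HFD, and carried the summed members at 719 CPM in NCD. This RNA was not subtracted for the slopes, and its part in the flat NCD sum was not tested.

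Levels at least 25% higher in the periportal than in the pericentral zone were found in HFD for 7 of 9 members and 7.94% of 10053 genes, and levels at least 25% higher in the pericentral zone for 0 of 9 members and 14.9% of genes. By the same measure 0 of 9 members and 6.4% of 6964 genes were periportal in NCD, and 2 of 9, Pdia4 and Sdf2l1, and 22.9% of genes were pericentral. The log2 interval lay below 0 in HFD for 9 of 9 members and 12.2% of genes, and above 0 for 0 members and 30.4% of genes. In NCD it lay above 0 for 4 members and 29.9% of genes, below 0 for 1 member and 8.5% of genes, and held 0 for the other 4 members. The median of all genes was itself shifted to the pericentral zone, by 0.13 in NCD and 0.08 in HFD on the log2 scale. Relative to that median, 0 members were pericentral by 25% and 1, Herpud1, was periportal in NCD, and 8 were periportal in HFD.

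Hspa5 was at 215 CPM (205 to 226), 248 CPM (239 to 258) and 253 CPM (243 to 264) in the periportal, middle and pericentral zones of the NCD section. In the HFD section it was at 943 CPM (932 to 954), 766 CPM (754 to 778) and 624 CPM (613 to 634) in the same order. The direction along the lobule was thus opposite in the 2 sections, with a log2 pericentral to periportal ratio of 0.24 (0.15 to 0.32) in NCD and -0.60 (-0.63 to -0.57) in HFD. Across the 10 steps the HFD level stepped from 1008 CPM at the periportal end to 563 CPM at the pericentral end.

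Herpud1, the degradation gene, was the one member that lay periportal in both sections beyond counting error. It was at 252, 224 and 203 CPM in the NCD zones and at 969, 853 and 747 CPM in the HFD zones. Its log2 ratios were -0.31 (-0.40 to -0.22) in NCD and -0.38 (-0.40 to -0.35) in HFD, with overlapping intervals. Herpud1 was thus the gene whose slope differed least between the sections.

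The BiP partner genes were flat or weakly pericentral in NCD. Dnajb9 was at 33.9, 41.0 and 40.4 CPM in the NCD zones and at 91.3, 83.7 and 67.0 CPM in the HFD zones, with log2 ratios of 0.25 (0.03 to 0.48) and -0.44 (-0.54 to -0.35). Sdf2l1 rested on 200 UMIs in the NCD zones, where it was at 6.13, 6.68 and 8.24 CPM with overlapping intervals, and it was at 46.2, 34.7 and 24.9 CPM in HFD. Its HFD log2 ratio was -0.89 (-1.04 to -0.74), which overlapped with that of Creld2. Hyou1 was at 15.6, 18.6 and 16.0 CPM in NCD and at 36.4, 34.3 and 26.7 CPM in HFD, with log2 ratios of 0.03 (-0.31 to 0.39) and -0.45 (-0.59 to -0.30). In HFD its periportal and middle intervals overlapped, and its pericentral interval lay below both.

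Pdia4 leaned to the pericentral side in NCD, at 33.9, 42.4 and 46.1 CPM. In HFD it was at 96.3, 95.2 and 80.9 CPM. Its log2 ratios of 0.44 (0.22 to 0.67) and -0.25 (-0.34 to -0.16) had opposite signs, each beyond counting error, but the HFD level was under 25% higher on the periportal side. Creld2 was at 11.5, 13.5 and 13.5 CPM in NCD, with a log2 ratio of 0.22 whose interval held 0, and at 114, 80.2 and 65.4 CPM in HFD, with a log2 ratio of -0.80 (-0.89 to -0.71). Manf was at 46.5, 40.8 and 43.4 CPM in NCD, with a log2 ratio of -0.10 (-0.30 to 0.10), and at 285, 240 and 191 CPM in HFD, with a log2 ratio of -0.58 (-0.63 to -0.53). Both genes of secreted proteins thus had no slope in NCD that counting error allowed to be seen and a periportal slope in HFD.

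Xbp1 had the smallest slope of the 9 in HFD. It was at 68.1, 67.5 and 76.6 CPM in the NCD zones and at 116, 114 and 107 CPM in the HFD zones. Its log2 ratios of 0.17 (0.01 to 0.33) and -0.12 (-0.20 to -0.04) changed sign when spots were drawn down to 3000 UMIs, to -0.03 in NCD and 0.01 in HFD. No direction along the lobule is therefore given for Xbp1. The NCD value of Hyou1, whose interval held 0, also changed sign with the way of counting, to -0.13 with each spot weighted equally.

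**Figure D2:**
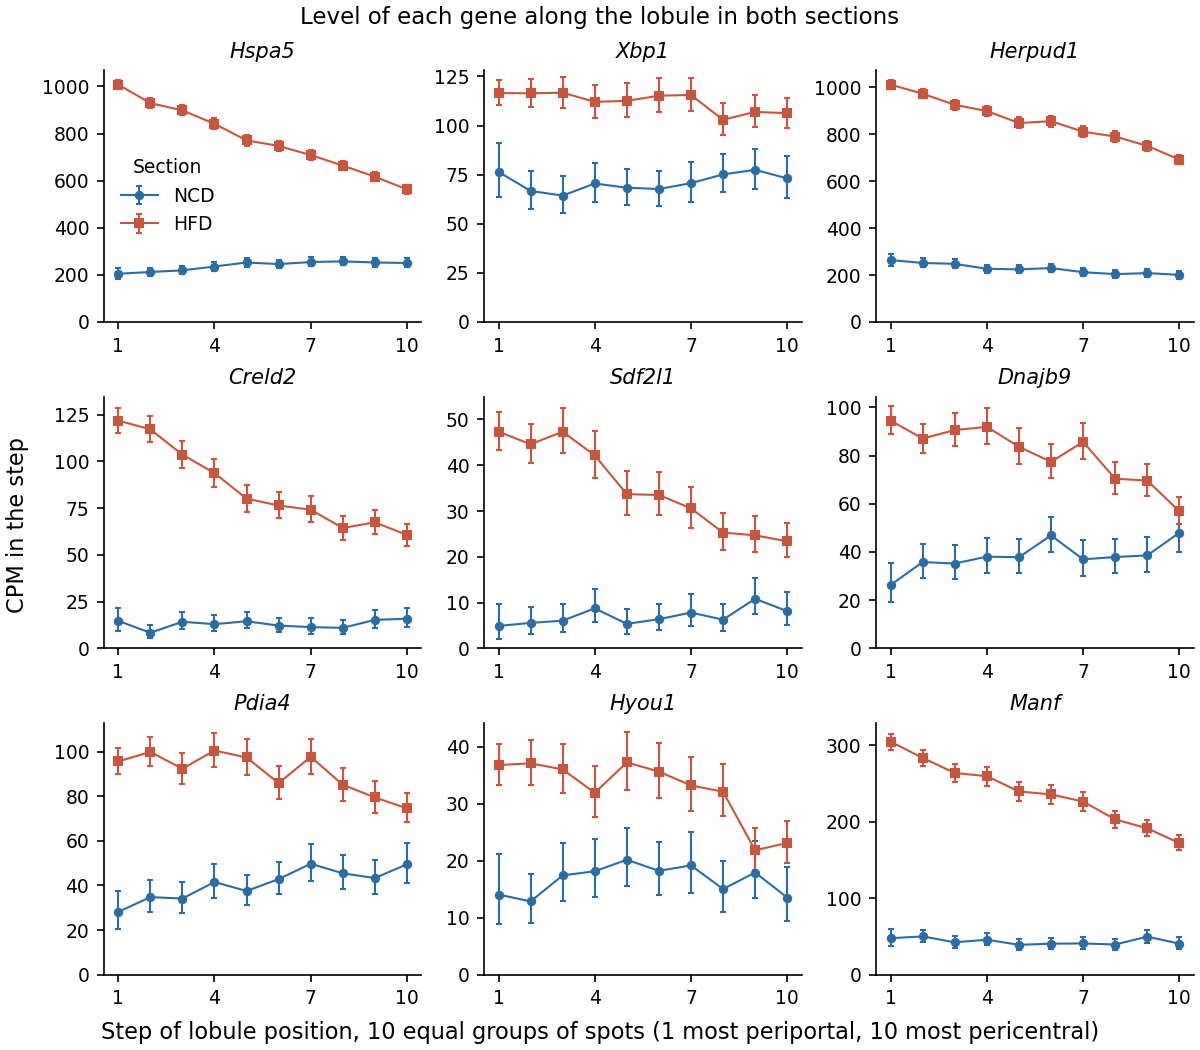
Level of each gene in CPM (vertical axes, each from 0) in 10 equal groups of spots ordered from most periportal (1) to most pericentral (10), in the NCD section (blue circles) and the HFD section (red squares), with 95% Poisson intervals. In HFD Hspa5 runs from 1008 to 563 and Manf from 305 to 172, while in NCD Hspa5 stays between 205 and 257.

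The sections were set side by side for the slope itself. A periportal to pericentral ratio at least 25% higher in HFD than in NCD was found for 7 of 9 members and for 13.7% of 6948 genes. The median shift of the log2 pericentral to periportal ratio was -0.70 over the members and -0.03 over these genes. The exceptions were Herpud1, with a shift of -0.07, and Xbp1, with a shift of -0.29. A log2 ratio above 0 in NCD and below 0 in HFD was found for 7 of 9 members and 15.5% of genes. The stricter pattern of a level at least 25% higher on the pericentral side in NCD and on the periportal side in HFD was found for 1 member, Sdf2l1, and for 0.23% of genes, and the NCD interval of Sdf2l1 held 0. Other ways of counting gave 0 to 4 members with this pattern. With 1 section per diet, the difference between the slopes was not tested.

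**Figure D3:**
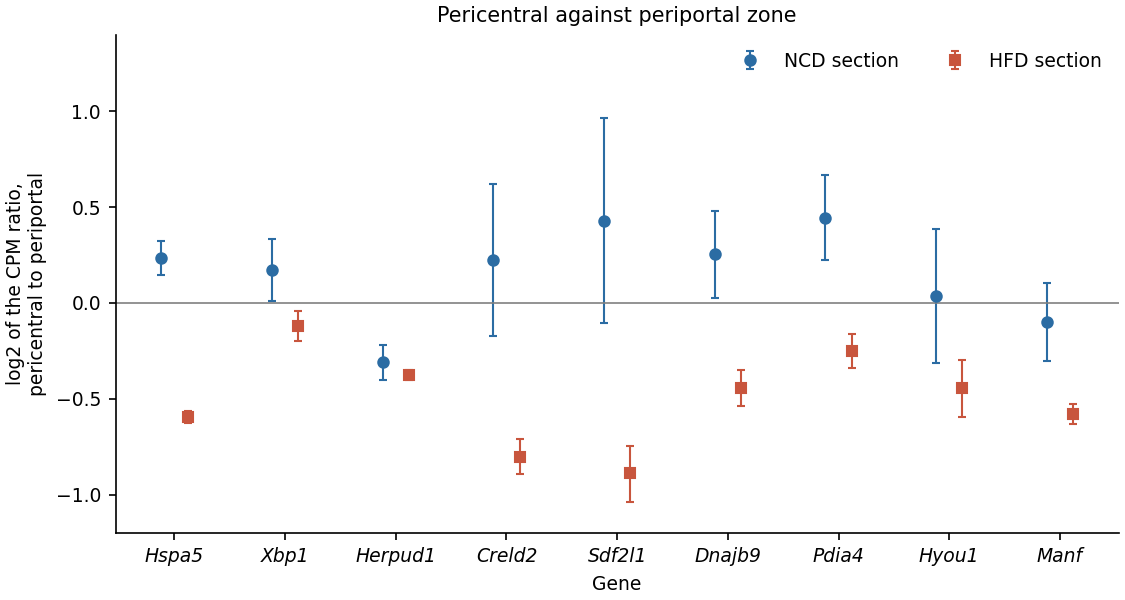
log2 of the pericentral to periportal CPM ratio (vertical axis, 0 is an equal level) for each gene in the NCD section (blue circles) and the HFD section (red squares), with 95% intervals. All 9 HFD points lie below 0, from -0.12 for Xbp1 to -0.89 for Sdf2l1, while the NCD points lie on both sides of 0.

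Depth and cell makeup also changed along the lobule. Median UMIs per spot were 6041, 8578 and 7844 from the periportal to the pericentral zone in NCD, and 24556, 14857 and 16945 in HFD. Spots with 5000 or more UMIs alone gave a summed log2 ratio of 0.04 in NCD and -0.48 in HFD. Hepatocyte markers leaned periportal in both sections, from 110360 to 71703 CPM in NCD and from 117007 to 85480 CPM in HFD. Bile duct markers did so too, from 116 to 10.2 CPM in NCD and from 335 to 75.5 CPM in HFD. Lipid-associated macrophage markers went from 132 to 30.2 CPM in NCD and from 412 to 147 CPM in HFD, and stellate cell markers the other way, from 338 to 432 CPM and from 466 to 632 CPM. Spp1 is in both of these lists. Without it the other 4 bile duct genes went from 13.99 to 2.09 CPM in NCD and from 23.6 to 5.05 CPM in HFD, and the other 4 macrophage genes from 29.9 to 22.1 CPM and from 101 to 77.0 CPM. Other readings ran opposite ways in the 2 sections, as Hspa5, Dnajb9 and Pdia4 did. Red blood cell markers went from 6803 to 4858 CPM in NCD and from 836 to 1660 CPM in HFD, and neutrophil markers from 12.9 to 20.3 CPM and from 13.3 to 9.83 CPM. The part of depth and of these cell types in the slopes of the members was not tested.

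Seen from the diets, with zones matched by rank, all 9 members and 37.9% of 6948 genes had their highest HFD to NCD ratio in the periportal zone. Creld2 was 9.88-fold higher in HFD in the periportal zone, 5.96-fold in the middle zone and 4.86-fold in the pericentral zone. Sdf2l1 was 7.53-fold, 5.20-fold and 3.03-fold higher in the same order, and Hspa5 4.38-fold, 3.08-fold and 2.46-fold. The periportal interval lay above the pericentral one for 7 of the 9 genes, all but Herpud1 and Hyou1, and for 9.02% of 6948 genes. Herpud1 was 3.85-fold, 3.81-fold and 3.67-fold higher, with overlapping intervals. Manf was 6.14-fold higher in the periportal and 4.41-fold higher in the pericentral zone. The lowest ratio was that of Xbp1 in the pericentral zone, at 1.39-fold, and all 27 ratios of the 9 genes in the 3 parts of the lobule were above 1, as were all 3 ratios of 54.6% of genes.

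**Figure D4:**
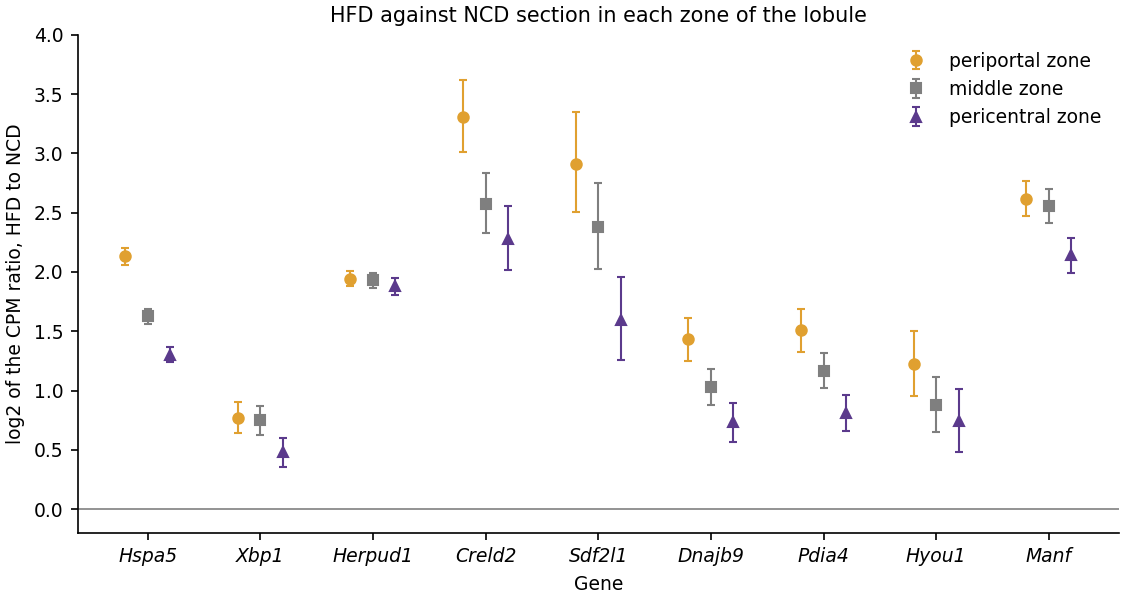
log2 of the HFD to NCD CPM ratio (vertical axis) for each gene in the periportal (yellow circles), middle (grey squares) and pericentral (purple triangles) zones of spots, with 95% intervals. The points descend from periportal to pericentral for each gene, from 3.30 to 2.28 for Creld2, and lie together for Herpud1 at 1.94, 1.93 and 1.88.

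It was also asked whether the genes were high in the same spots of one zone. Among spots with a position and at least 5000 UMIs, 1695 in NCD and 3468 in HFD, spots were ranked within each zone by the share of UMIs from the other 8 members. Each member was then compared between the richest and the poorest 20% of spots. In HFD all 9 were higher in the richest spots with intervals above 0, as were 7.58% of 7498 other genes when spots were ranked by the 9 members, and 5 of 9 by at least 25%, against 1.85% of those genes. Creld2 was at 110 CPM in the richest and 74.4 CPM in the poorest spots, a log2 ratio of 0.57 (0.45 to 0.68). Hspa5 was at 912 and 706 CPM, a log2 ratio of 0.37 (0.33 to 0.41), and Sdf2l1 at 44.5 and 31.8 CPM, a log2 ratio of 0.49 (0.30 to 0.67). Xbp1 was at 121 and 107 CPM, a log2 ratio of 0.17 (0.06 to 0.27). Other ways of ranking gave 2 to 8 members at 25%, with all 9 above 0 in each. The genes were thus counted together at the scale of single spots in HFD, by less than they differed between the sections.

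In NCD 1 of the 9 members, Sdf2l1, was higher by at least 25%, against 2.93% of 3417 other genes. It was at 10.3 and 5.36 CPM, a log2 ratio of 0.94 (0.17 to 1.73), and its interval was the only one of the 9 above 0, against 7.55% of the intervals of the other genes. Hspa5 in NCD was at 249 and 228 CPM, a log2 ratio of 0.13 (0.00 to 0.25). The NCD interval held the HFD value for 5 genes (Xbp1, Creld2, Sdf2l1, Dnajb9 and Manf) and lay below it for the other 4. NCD spots hold fewer UMIs of the members to rank by, and with HFD spots ranked at 5000 UMIs the HFD log2 ratios ran from 0.09 to 0.33 and the NCD interval lay below the HFD value for 1 gene, Hyou1. A difference between the sections in how the 9 genes go together was thus not detectable at this depth for most of them. With HFD spots ranked within 10 steps of position in place of 3 zones, the log2 ratios ran from 0.13 to 0.54 and 9 of 9 were above 0. Zones did not hold position fully, since in HFD the periportal check genes were higher in the richest spots (median log2 ratio 0.27 over 4 genes) and the pericentral ones lower (-0.23 over 4 genes), when spots were ranked by all 9 members. With 10 steps the median pericentral share of landmark UMIs was 52.0% in both the richest and the poorest spots, against 50% and 53.7% within zones.

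**Figure D5:**
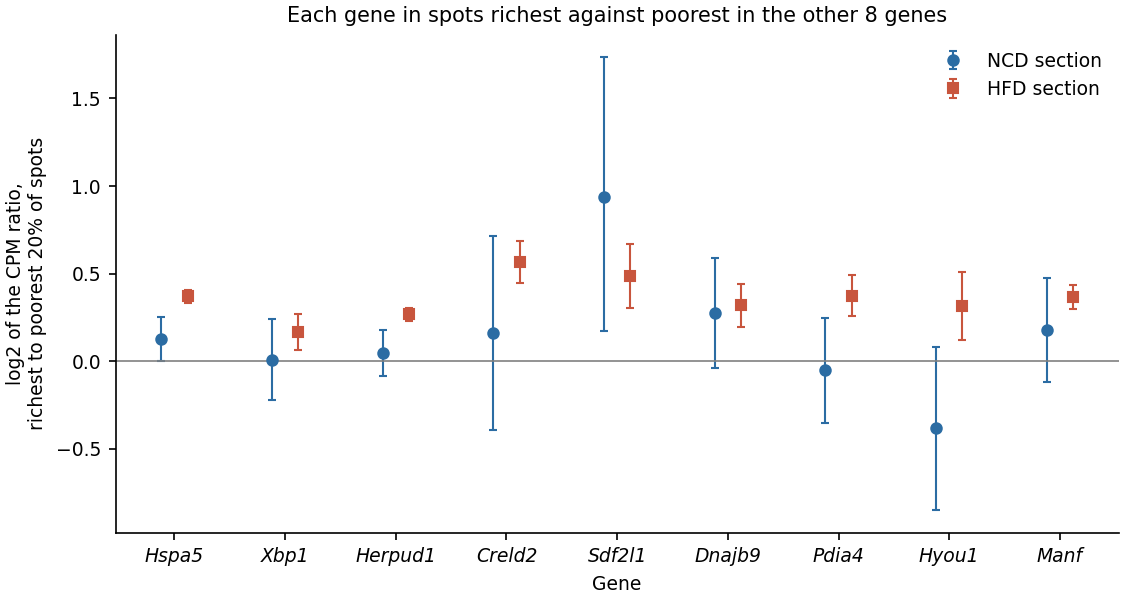
log2 of the CPM ratio of each gene between the 20% of spots richest and the 20% poorest in the other 8 genes (vertical axis), ranked within lobule zones, in the NCD section (blue circles) and the HFD section (red squares), with 95% intervals. The HFD points lie between 0.17 and 0.57, and most NCD intervals include 0.

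Genes that went with the 9 members in HFD were ranked among the 1928 genes with 200 or more UMIs in the compared spots of both sections and a ratio above 1 in NCD. The first 5 were Etnppl, Ces3b, Hal, Ces1b and Igkc, with log2 richest to poorest ratios from 0.57 to 0.46 in HFD. Hal, the histidine breakdown enzyme, is itself a periportal landmark, and Igkc is an antibody light chain. Etnppl encodes an enzyme of phosphoethanolamine breakdown, and Ces3b and Ces1b encode carboxylesterases. All 5 were lower in the HFD than in the NCD section, with log2 ratios from -2.25 for Ces3b to -0.65 for Hal. The rule that chose them asked for 200 or more UMIs in the shallower NCD spots, which favours genes high in NCD. No contrast with the members is therefore drawn. Syvn1, a gene of ER-associated degradation, had a log2 richest to poorest ratio of 0.50 in HFD but no NCD value, so it could not enter. Markers of muscle of vessel walls were the furthest from the members in HFD, at 65.2 CPM in the richest and 185 CPM in the poorest spots for the 5 genes together. Hepatocyte markers were at 105957 and 95918 CPM there. Without the 5% of spots richest in smooth muscle markers the members' log2 ratios ran from 0.19 to 0.54. In NCD smooth muscle markers went the other way, at 48.6 CPM in the richest and 27.6 CPM in the poorest spots. There plasma cell markers were at 293 CPM in the richest and 130 CPM in the poorest spots, and their part in the NCD values was not tested.

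Other genes of the ER folding and degradation machinery were compared from a list of 25. Of these 10 were at least 1.5-fold higher in HFD and 0 were lower, against 23.9% and 4.56% of all genes. The median log2 ratio was 0.46 against 0.23 over all genes and 1.73 over the members. Syvn1, which encodes the ubiquitin ligase of ER-associated degradation, was at 17.7 CPM in NCD and 69.4 CPM in HFD, a log2 ratio of 1.97 (1.84 to 2.11). Hsp90b1, the gene of the chaperone GRP94, was at 237 and 567 CPM, a log2 ratio of 1.26 (1.22 to 1.29). Derl3, of the same degradation route, was the furthest apart, with a log2 ratio of 4.67 (3.44 to 6.31), but rested on few NCD counts. It had 5 UMIs in NCD and 317 in HFD. Derl3 is among the 10 higher genes and passed the minimum of 200 UMIs over both sections through its HFD counts. Erlec1, Sil1 and Os9 were the lowest, with log2 ratios of -0.34, -0.09 and 0.02. In HFD 8 of the 25 were at least 25% higher on the periportal side and 0 on the pericentral side. The shares over all genes were 7.94% and 14.9%. In NCD 0 of 24 were periportal and 3 pericentral, against 6.4% and 22.9% of all genes, and Derl3 had no ratio there.

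The 14 genes that carry proteins into the ER had a median log2 ratio of 0.19, near that of all genes. Of these 1 was higher and 1 lower, against 23.9% and 4.56% of all genes. The higher one was Sec61a1, the channel subunit, at 58.0 and 95.8 CPM in NCD and HFD. The lower one was Sec61g, at 584 and 351 CPM. Of the 9 sensors and their processing enzymes 4 were higher and 0 lower. Among the higher ones, Eif2ak3 had 138 UMIs in NCD and 1076 in HFD, Atf6b 191 and 847, and Creb3l2 147 and 957. These genes passed the minimum of 200 UMIs over both sections through their HFD counts. No comparison with the shares of all genes is therefore drawn. The median log2 ratio of the 9 genes was 0.57, which the UMI minimum also affects. Eif2ak3, the gene of PERK, was at 4.75 CPM in NCD and 14.9 CPM in HFD, a log2 ratio of 1.65 (1.39 to 1.92). Atf6 was at 14.9 and 27.3 CPM, a log2 ratio of 0.87 (0.72 to 1.02), while Ern1, the gene of IRE1, was at 11.7 and 12.2 CPM, a log2 ratio of 0.06 (-0.12 to 0.25). The sensors' own transcripts thus differed unequally between the sections.

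Of 18 genes listed downstream of PERK 17 were found, and 13 had 200 or more UMIs over both sections. Several passed that minimum through their HFD counts, such as Atf3 with 50 UMIs in NCD and 684 in HFD, so no count of directions is drawn from them. Asns, the asparagine synthetase gene, was under the minimum with 80 UMIs in NCD and 32 in HFD and was lower in HFD, with a log2 ratio of -2.63 (-3.27 to -2.03). Atf3, a stress-induced transcription factor, was at 1.72 CPM in NCD and 9.48 CPM in HFD, a log2 ratio of 2.46 (2.05 to 2.91). Ddit3, the gene of CHOP, carried 2 identifiers whose UMIs were summed, and was at 7.20 and 32.6 CPM, a log2 ratio of 2.18 (1.98 to 2.39). Slc3a2 and Aars, of amino acid supply, were at -0.18 and 0.04. The genes named here are from the extremes of the list, with Asns added, so they do not give its balance. The median log2 ratio of the 13 genes was 0.45, which the UMI minimum also affects.

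Genes that act outside the ER differed by compartment. Of 12 cytosolic heat shock genes 10 were at least 1.5-fold higher in HFD and 0 lower, with a median log2 ratio of 1.21. The shares over all genes, for each list here, were 23.9% higher and 4.56% lower. Hspb1 was at 21.7 CPM in NCD and 116 CPM in HFD, and Hspa1a at 2.58 and 13.6 CPM. Hspa1a had 75 UMIs in NCD and 980 in HFD, and so passed the UMI minimum through HFD. On the periportal side in HFD, 1 of these 12 was at least 25% higher, near the share of 7.94% over all genes. Of 8 mitochondrial chaperone and protease genes 0 were higher and 0 lower, with a median of -0.04. The members' cargo, represented by 12 genes of secreted plasma proteins, had 3 higher, 1 lower and a median of 0.07, with Hp at 1954 and 5130 CPM and Fgb at 2994 and 1893 CPM. In HFD 7 of these 12 cargo genes were at least 25% higher on the periportal side, as were 7 of the 9 members. In NCD 4 of 12 were, against 0 members. The shares over all genes were 7.94% in HFD and 6.4% in NCD.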

How the data were processed

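The deposited count matrices hold whole UMIs per gene and spot, made by the authors against mm10 per the submitters' processing notes. The file headers name Space Ranger 1.3.1 for the filtered matrix of each section and Cell Ranger 4 for the unfiltered one. The filtered matrix holds spots over tissue, and the unfiltered one supplied the spots off tissue. Spot coordinates were not used. From the counts, CPM were computed as UMIs of a gene over all UMIs of the spots compared, times 1000000. Intervals are exact (Poisson for CPM, conditional binomial for ratios, Clopper-Pearson for shares), at 95%, and UMIs of 1 section are not replicates. No doublet caller was run, since spots hold several cells. Members and gene lists were chosen with earlier results of these data known. Named are all members, genes from the extremes of each pathway list by HFD to NCD ratio among those with 200 or more UMIs, and the 5 other genes with the highest richest to poorest ratio in HFD among those with enough UMIs in both sections and a ratio above 1 in NCD. Asns and the single macrophage genes were named after their values were seen. The calculations, run in Python 3.11.15 with numpy 2.4.6 and scipy 1.17.1, were tested on simulated data for the HFD to NCD comparison, where 95.1% of 10665 simulated ratios lay within their intervals. Alternatives covered depth, totals, landmarks, left-out spots and, for the HFD to NCD ratios only, off-tissue RNA.

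Other marker lists were also summed over whole sections. T cell markers were at 8.16 CPM in NCD and 5.77 CPM in HFD, neutrophil markers at 15.5 and 11.6 CPM, Ptprc at 6.61 and 10.7 CPM, macrophage markers at 206 and 232 CPM, sinusoidal endothelial markers at 196 and 269.8 CPM, smooth muscle markers at 32.3 and 86.1 CPM, and red blood cell markers at 6676 and 1246 CPM. The macrophage sum hides genes that went both ways. Marco was at 14.1 and 1.54 CPM, Vsig4 at 36.5 and 16.9 CPM and Clec4f at 54.0 and 49.2 CPM. Adgre1 was at 10.4 and 22.7 CPM, Cd68 at 9.37 and 25.8 CPM and Cd5l at 81.8 and 116 CPM.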

Additional observations from a re-analysis of the deposited data

Results flagged for a closer look

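For 4 genes the log2 pericentral to periportal ratio pointed one way in the NCD section and the other way in the HFD section, each beyond counting error. It was 0.24 and -0.60 for Hspa5, 0.17 and -0.12 for Xbp1, 0.25 and -0.44 for Dnajb9 and 0.44 and -0.25 for Pdia4, and the difference between the sections was not tested. Relative to the median of all genes, the values of Hspa5 were 0.11 and -0.67 and those of Pdia4 0.31 and -0.33. Those of Xbp1 were 0.04 and -0.20 and those of Dnajb9 0.12 and -0.52. In NCD the median of all genes, 0.13, lay within the intervals of Xbp1 (0.01 to 0.33) and Dnajb9 (0.03 to 0.48). Xbp1 did not hold its sign when spots were drawn down to equal depth.

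Spots off the tissue, which enter no comparison of levels on the tissue, carried the summed members at 719 CPM (699 to 739) in NCD and 1545 CPM (1493 to 1598) in HFD. Hspa5 alone was there at 244 and 491 CPM.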

How the results depend on the processing

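The summed HFD to NCD log2 ratio of 1.76 stayed above 0 under all 10 alternatives. It was 1.72 with spots drawn down to 3000 UMIs, 1.74 without mitochondrial and the 20 most abundant genes in the total, 1.53 relative to the median of all genes, 1.74 over spots on and off tissue with 1000 or more UMIs, 1.90 with the off-tissue profile subtracted and 1.72 averaged over the lobule zones. The count of members at least 1.5-fold higher was 8 or 9 in each. The summed HFD slope of -0.48 ran to -0.58 between the outermost 20% of spots, -0.50 with at least 100 landmark UMIs, -0.52 without mitochondrial, landmark and the 20 most abundant genes in the total, and -0.46 with each spot weighted equally. The summed NCD slope of 0.04 became -0.057 without those genes in the total, so it has no settled sign. Xbp1 reversed in NCD to -0.0441 with each spot weighted equally and to -0.0294 drawn down to 3000 UMIs, and in HFD to 0.0061 drawn down. The cause was not tested. The count of 5 members at least 25% higher in the richest 20% of HFD spots was 2 when spots were split in 3 in place of 5 parts, 8 ranked without regard to position, 2 ranked at 5000 UMIs and, chosen after seeing the data, 3 ranked within 10 steps of position, with all 9 above 0 each time. The pattern of 25% in opposite directions, found for 1 member, was found for 4 between the outermost 20% of spots, 3 drawn down to 3000 UMIs, 0 with landmarks weighted equally and, chosen after seeing the data, 0 in spots with at least 5000 UMIs. No paired analysis was possible because each diet has 1 section. The NCD depth limits the slopes of Sdf2l1, Creld2, Hyou1 and Manf, whose NCD intervals held 0.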
